A study of Mus musculus with 22 samples.

Results

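Conventional natural killer (cNK) cells and CD8 T cells without the NK surface receptor NK1.1 are both killer lymphocytes, and both were sorted from mammary tumours of the same mouse model. The comparison described here rests on 4 of the 22 RNA-seq libraries of the series, taken by their titles: 2 libraries of cNK cells and 2 of TCRb+CD8a+NK1.1- cells, called CD8 T cells below. It covers the 16828 of 37620 table entries that had enough counts to be tested. All cells came from pooled mammary tumours of female PyMT mice of the C57BL/6 strain, aged 20 to 24 weeks. In the PyMT model the mammary gland carries an oncogene of the polyoma virus and forms tumours. The name of the CD8 T cell population gives its gate, so T cell receptor β, CD8α and NK1.1 are properties of that sort and no findings. The sources used here do not give the gate that defined cNK cells.

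The series holds 11 lymphocyte populations in 2 sets, 5 in the first and 6 in the second, with 2 libraries each. Both populations compared here belong to the second set, as do the ILC1l cells (type 1-like innate lymphoid cells) used further on. From the first set, TCR-NK1.1+ cells and TCRb+CD8a+PD1-NK1.1- cells were set against each other as the nearest pair of populations in libraries of their own. Whether the 2 libraries of a population stem from different mice is not stated in the labels, and each sort drew on several tumours combined. For this reason p-values speak only to spread between libraries and not between mice. That spread was estimated over all populations of a set, 12 libraries in the second and 10 in the first. A missing call can therefore also reflect scatter in populations that were not compared.

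NK cells and CD8 T cells kill with the same machinery, granules that carry perforin and granzymes, and differ in how they choose a target. CD8 T cells carry a rearranged T cell receptor that signals through the CD3 chains and adaptors such as Lat. NK cells carry germline-encoded receptors, several of which signal through the adaptors Tyrobp (DAP12) and Fcer1g, and inhibitory Ly49 receptors that bind MHC class I molecules. Circulating NK cells are known for CD11b (Itgam) and CD49b (Itga2), and CD8 T cells lodged in tissue for CD103 (Itgae), CD49a (Itga1) and the chemokine receptor CXCR6.

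The 4 libraries held 11540356 to 13552658 counts, within the range of 8696335 to 20602715 over all 22, and 15593 to 18245 genes with a count. In them, 3 counts corresponded to 0.221 to 0.260 CPM, the unit used below, counts per 1000000 counts of a library after scaling. Markers of other cell types did not fall evenly. The 18 epithelial markers summed to 100.3 and 141 CPM in the cNK libraries and 2131 and 3479 CPM in the CD8 T cell libraries. Without Cdh1, which lymphocytes lodged in epithelium also express, the other 17 summed to 83.2 and 128 CPM in the cNK libraries and 1494 and 2814 CPM in the CD8 T cell libraries; this split was made after the values were seen. The 12 B cell markers summed to 2766 and 1619 CPM in the cNK libraries and 294 and 368 CPM in the CD8 T cell libraries. The 20 myeloid markers summed to 999.6 and 3741 CPM in cNK libraries and 2899.9 and 2905 CPM in CD8 T cell libraries, so the cNK libraries differed between themselves.

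Across all genes tested, 293 (1.74%) differed between cNK cells and CD8 T cells at an adjusted p under 0.05 in edgeR's quasi-likelihood test, 118 higher in cNK cells (0.701%) and 175 lower (1.04%). These are referred to as called. The shares of 0.701% and 1.04% are the background for the calls counted in each gene list below. In every called gene both libraries of a population lay on the same side of both libraries of the other, which 22.5% of all genes tested did upwards in cNK cells and 26.5% downwards. Among the higher calls of largest size were the NK receptor gene Ncr1, the protease inhibitor gene Serpinb9b, the chymase gene Cma1 and the Ly49 receptor genes Klra8 and Klra4. Among the lower were the CD8 chains Cd8b1 and Cd8a, the T cell adaptor Themis, the inhibitory receptor Pdcd1 and the transcription factor Ikzf4. The called genes included 22 antigen receptor segments and constant regions, 2 higher and 20 lower in cNK cells. They also included 22 genes whose levels follow epithelial or myeloid markers across the series, all lower in cNK cells. Genes that follow the B cell markers, which summed higher in the cNK libraries, were not sought. In whole populations, fewer cells that express a gene and less RNA per cell cannot be told apart. Without 1 of the 4 libraries fewer genes were called: 98 genes were called without the first cNK library, 93 without the second, 158 without the first CD8 T cell library and 117 without the second, and 27 of the higher and 43 of the lower calls held in all 4 repeats. DESeq2's Wald test called 998 genes, among them all 118 of the higher calls and 174 of the lower.

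**Figure D1:**
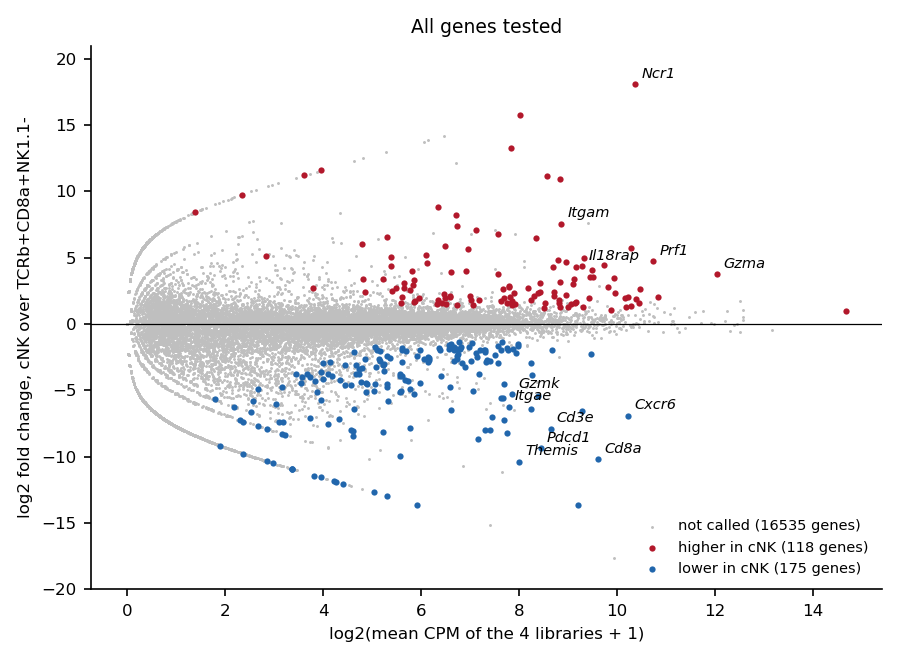
Each point is 1 of 16828 genes, placed by the log2 of its mean CPM over the 4 libraries plus 1 (horizontal) and by the fitted log2 fold change of cNK cells over CD8 T cells (vertical). The 118 genes called higher in cNK cells are red, the 175 called lower are blue and genes not called are grey; genes with 0 counts in a population form the outer arcs, where the fitted value depends on the fit's prior count.

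The markers chosen for the lineages, Ncr1 for NK cells and Cd3e for T cells, lay far apart between the populations. Ncr1, which encodes the activating NK receptor NKp46, had 2735 and 2550.4 CPM in the cNK libraries and 0 counts in both CD8 T cell libraries. It was at least 23947-fold higher in cNK cells, taking 3 counts over the CD8 T cell libraries, with an adjusted p of 0.00452. Cd3e, a signalling chain of the T cell receptor complex, had 0.622 and 6.13 CPM in cNK libraries and 970.4 and 623 CPM in CD8 T cell libraries, a log2 fold change of -7.90 ± 1.12 (SE) with an adjusted p of 0.00698. Both calls held without any 1 of the 4 libraries, and the populations did not overlap in either gene. NK1.1 was part of the CD8 T cell gate, so its gene checks that sort and is no finding. That gene, Klrb1c, stood at 2483 and 2438 CPM in cNK libraries. It stood at 5.95 and 87.6 CPM in CD8 T cell libraries, higher in the second than in the first. Its log2 fold change was 5.72 ± 1.00 (SE) with an adjusted p of 0.0215, and the call was lost without the first or the second cNK library (adjusted p 0.0558 and 0.0616).

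The starts of 4 lineage genes are shown, those of Ncr1 and Klrb1c, called higher in cNK cells, and those of Cd3e and Themis, called lower. Given are the 250 bases before the first start that RefSeq lists for each gene (build GRCm38.p6), 5′ to 3′ on the gene's strand, with capitals for TGTGGT or its reverse complement ACCACA, the core that RUNX transcription factors bind. Of all 27025 promoters of that table, 14.2% hold this motif in the same window.
Ncr1, plus strand, chr7:4337465-4337714: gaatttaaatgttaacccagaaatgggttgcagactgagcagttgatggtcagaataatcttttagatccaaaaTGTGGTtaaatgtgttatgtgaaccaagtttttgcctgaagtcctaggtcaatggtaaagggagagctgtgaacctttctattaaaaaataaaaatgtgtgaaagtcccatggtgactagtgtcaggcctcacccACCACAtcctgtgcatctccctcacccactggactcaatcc
Klrb1c, minus strand, chr6:128788642-128788891: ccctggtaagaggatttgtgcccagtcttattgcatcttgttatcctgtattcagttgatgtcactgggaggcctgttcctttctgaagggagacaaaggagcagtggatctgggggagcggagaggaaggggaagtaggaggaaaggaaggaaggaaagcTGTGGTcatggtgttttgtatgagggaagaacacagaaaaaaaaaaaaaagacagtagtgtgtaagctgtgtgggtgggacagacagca
Cd3e, minus strand, chr9:45009612-45009861: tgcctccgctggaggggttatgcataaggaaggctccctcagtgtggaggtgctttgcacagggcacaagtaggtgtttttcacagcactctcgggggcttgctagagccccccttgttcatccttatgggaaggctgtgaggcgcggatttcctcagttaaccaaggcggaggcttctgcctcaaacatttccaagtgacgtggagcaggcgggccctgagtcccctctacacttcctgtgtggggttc
Themis, plus strand, chr10:28668110-28668359: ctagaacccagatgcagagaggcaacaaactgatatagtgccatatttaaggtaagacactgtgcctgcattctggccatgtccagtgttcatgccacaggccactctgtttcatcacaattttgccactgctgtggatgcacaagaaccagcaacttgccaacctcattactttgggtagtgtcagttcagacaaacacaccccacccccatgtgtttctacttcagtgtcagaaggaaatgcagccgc
The window of Ncr1 held 2 matches and that of Klrb1c 1, and those of Cd3e and Themis held 0. A T-box core, GTGTGA or its reverse complement TCACAC, matched 1 time in Ncr1 and 0 times in the other windows. It is held by 12.2% of the 27025 windows. The TCF/LEF core CTTTGA or TCAAAG, held by 14% of the 27025, matched in none of the 4. A match is a description of letters and no evidence of binding.

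**Figure D2:**
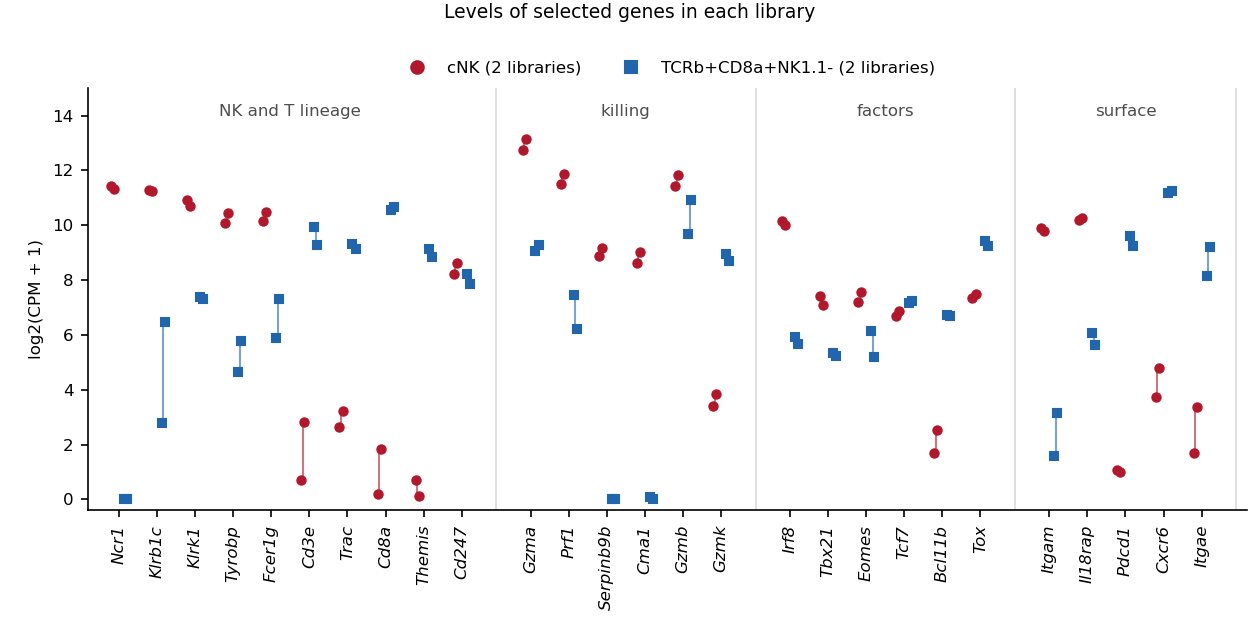
Level of selected genes in each library, as log2(CPM + 1), with the 2 cNK libraries as red circles and the 2 CD8 T cell libraries as blue squares to their right. Lines join libraries of a population; Ncr1, Serpinb9b and Cma1 sit at or near 0 in CD8 T cells, Pdcd1 and Themis near 0 in cNK cells, and Cd247 overlaps.

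Of 14 genes for CD3 chains, receptor constant regions, coreceptors and pan-T surface proteins, 9 were called lower in cNK cells and none higher, with a median log2 fold change of -6.02 beside -0.05 over all genes tested. Cd8b1, a chain of the CD8 coreceptor, had 2 counts over the cNK libraries and 1433 and 919 CPM in CD8 T cell libraries, a ratio of 14419 (95% counting interval 3991 to 119070.0) in favour of CD8 T cells. Its call was lost without either cNK library (adjusted p 0.123 and 0.0866). Trac, the constant region of the receptor α chain, had 5.29 and 8.35 CPM in cNK libraries and 636 and 556 CPM in CD8 T cell libraries, a log2 fold change of -6.45 ± 0.81 (SE) with an adjusted p of 0.00402. Cd6, a pan-T surface protein, showed the same order with 1.87 and 0.711 CPM in cNK libraries and 370.0 and 307 CPM in CD8 T cell libraries (log2 fold change -8.01 ± 0.83 (SE), adjusted p 0.00155). For Trac and Cd6 the populations lay far apart, and both calls held without any 1 library.

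The constant regions of the receptor β chain behaved unequally. Trbc2 had 62.9 and 76.2 CPM in cNK libraries and 599 and 469.8 CPM in CD8 T cell libraries and was called lower in cNK cells, with a log2 fold change of -2.94 ± 0.34 (SE) and an adjusted p of 0.00279. Trbc1 had 252 and 279 CPM in cNK libraries and 318 and 372 CPM in CD8 T cell libraries, with an interval of -1.03 to 0.28 on the log2 scale and an adjusted p of 0.726. The 2 regions are near copies, so reads may have been split between them, and these genes were named after their values were seen. Among receptor segments, Trdv4 of the δ chain was higher in cNK cells, with 52.1 and 53 CPM against 1.57 and 0 CPM in CD8 T cells (log2 fold change 6.00 ± 0.97 (SE), adjusted p 0.015). The γ chain constant region Tcrg-C2 was lower, with 0.856 and 2.04 CPM in cNK libraries and 438 and 419.7 CPM in CD8 T cell libraries (log2 fold change -8.21 ± 0.80 (SE), adjusted p 0.00128). Tcrg-C1 and Tcrg-C4 were called lower as well, with log2 fold changes of -5.07 ± 0.44 and -3.94 ± 0.34 (SE), and these 3 calls and that of Trdv4 held without any 1 library.

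Of 20 signalling genes downstream of the receptor, 4 were called lower in cNK cells and none higher, and the median log2 fold change was -0.78. Themis, an adaptor of T cell receptor signalling in developing T cells, had 0.622 and 0.0889 CPM in cNK libraries and 558 and 458 CPM in CD8 T cell libraries. The fitted log2 fold change was -10.39 ± 0.90 (SE) with an adjusted p of 0.000756, and the call held without any 1 library. Lat, the membrane adaptor of the pathway, had 101 and 76.6 CPM in cNK libraries and 439.8 and 355 CPM in CD8 T cell libraries (log2 fold change -2.17 ± 0.29 (SE), adjusted p 0.00501), lost only without the second cNK library (adjusted p 0.083). Trat1, a receptor-associated adaptor, was called lower with a log2 fold change of -3.98 ± 0.81 (SE). The call held only without the second CD8 T cell library (adjusted p 0.0469 to 0.346 over the 4 repeats). Ubash3a, a phosphatase that restrains the receptor, was the fourth, with 69.2 and 57.8 CPM in cNK libraries and 241 and 252 CPM in CD8 T cell libraries, and its call was lost without each of the 4 libraries (adjusted p 0.0558 to 0.17).

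Other members were shared by both populations. For 1297 of all genes tested (7.71%), the 95% interval of the log2 fold change lay within 1 unit of 0, a difference of less than 2-fold either way. They included the kinase Lck, with 1226 and 1395 CPM in cNK libraries and 1365 and 1644 CPM in CD8 T cell libraries and an interval of -0.82 to 0.42. Lcp2 (SLP-76) and Skap1, adaptors of the same pathway, had intervals of -0.73 to 0.22 and -0.40 to 0.59. Cd247, the ζ chain that serves both the T cell receptor and NK receptors, had 297 and 389.6 CPM in cNK libraries and 299 and 230.5 CPM in CD8 T cell libraries, which overlapped, with an interval of -0.23 to 0.98. The number of such genes was 319 without the first cNK library, 312 without the second, 386 without the first CD8 T cell library and 428 without the second.

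NK receptors outside the Ly49 family were higher in cNK cells in 8 of 23 tested genes, beside 0.701% of all genes, and lower in none. Their median log2 fold change was 3.48. Klrk1, the gene of the activating receptor NKG2D, had 1917 and 1673 CPM in cNK libraries and 165 and 157 CPM in CD8 T cell libraries, a log2 fold change of 3.48 ± 0.40 (SE) with an adjusted p of 0.0028. Klrb1b, an inhibitory member of the NK1.1 family, had 257 and 296 CPM in cNK libraries and 3.55 and 0.4 CPM in CD8 T cell libraries (log2 fold change 7.10 ± 0.92 (SE), adjusted p 0.00452). Both calls held without any 1 library, and neither gene overlapped between populations. Klrd1 (CD94), Klre1, Klrb1a and Klrc2 were the other called members beside Ncr1 and Klrb1c, with log2 fold changes of 3.05 to 4.65, and only that of Klrc2 was lost, without each of the 4 libraries (adjusted p 0.139 to 0.269).

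Ly49 receptors bind MHC class I molecules and most of them inhibit killing. Of 12 analysed Klra genes, 7 were called higher in cNK cells, beside 0.701% of all genes tested, and none lower. The median log2 fold change of the 12 was 4.24. Klra8 (Ly49H), the activating receptor for a cytomegalovirus protein, had 808 and 702 CPM in cNK libraries and 0.547 and 0.0801 CPM in CD8 T cell libraries. Klra4 (Ly49D), also activating, had 997 and 837 CPM in cNK libraries and 0.889 and 0 CPM in CD8 T cell libraries. Both were near 0 in CD8 T cells and high in both cNK libraries, with log2 fold changes of 11.13 ± 1.81 and 10.91 ± 2.03 (SE) and adjusted p of 0.0154 and 0.0347. The call of Klra8 was lost without either CD8 T cell library (adjusted p 0.0828 and 0.145) and that of Klra4 without each of the 4 libraries (adjusted p 0.0866 to 0.237). Klra7 (Ly49G), an inhibitory member, had 823 and 884 CPM in cNK libraries and 26.3 and 33.5 CPM in CD8 T cell libraries (log2 fold change 4.84 ± 0.41 (SE), adjusted p 0.000749), and its call held without any 1 library. Klra9, Klra1, Klra10 and Klra13-ps were the other called members, and their calls were lost without 1 or more of the 4 libraries (adjusted p up to 0.0574, 0.0769, 0.195 and 0.292). Klra5 ran the other way without a call, with 19.1 and 26 CPM in cNK libraries and 24.3 and 80.1 CPM in CD8 T cell libraries (adjusted p 0.42). Klra, Klrb and Klrc genes are near-identical within their families, so single values are uncertain.

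Adaptors that carry ITAM motifs, the phosphorylation sites that couple receptors to Syk family kinases, were tested with their kinases and partners. In this group 5 of 18 genes were higher in cNK cells and 1 was lower, beside 0.701% and 1.04% of all genes. Tyrobp had 1091 and 1395 CPM in cNK libraries and 24.1 and 53.2 CPM in CD8 T cell libraries, a log2 fold change of 5.01 ± 0.41 (SE) with an adjusted p of 0.000749. Fcer1g had 1150.2 and 1435 CPM in cNK libraries and 58 and 159 CPM in CD8 T cell libraries, a log2 fold change of 3.57 ± 0.44 (SE) with an adjusted p of 0.00377. Both adaptors were high in both cNK libraries, and both calls held without any 1 library. The kinase Syk had 115 and 150.2 CPM in cNK libraries and 5.88 and 1.44 CPM in CD8 T cell libraries (log2 fold change 5.17 ± 0.94 (SE), adjusted p 0.0261). It was called again only without the first CD8 T cell library (adjusted p 0.0496 to 0.173 over the 4 repeats). Sh2d1b2, an adaptor of the SLAM receptors, was the other higher member, with a log2 fold change of 5.12 ± 0.97 (SE) that was lost without each of the 4 libraries (adjusted p 0.179 to 0.291). The 2 phospholipases that act below these kinases ran in opposite directions. Plcg2 had 96.7 and 110.4 CPM in cNK libraries and 14.6 and 5.76 CPM in CD8 T cell libraries, and Plcg1 had 2.26 and 2.84 CPM in cNK libraries and 82.2 and 98.8 CPM in CD8 T cell libraries. Their log2 fold changes were 3.35 ± 0.46 and -5.15 ± 0.56 (SE) with adjusted p of 0.00597 and 0.0023, and both calls held without any 1 library.

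Genes of killing split by member. Of 26 tested genes for granzymes, perforin, death ligands, granule release and granule protease inhibitors, 5 were higher in cNK cells and 2 lower. Over all genes tested these shares were 0.701% and 1.04%. The median log2 fold change of the 26 was 0.52, or 0.63 with genes at 0 counts in a population set to their bound. Perforin, Prf1, had 2886 and 3713 CPM in cNK libraries and 175 and 73.7 CPM in CD8 T cell libraries, a log2 fold change of 4.73 ± 0.46 (SE) with an adjusted p of 0.00128. Granzyme A, Gzma, had 6805 and 8984 CPM in cNK libraries and 531 and 621 CPM in CD8 T cell libraries, a log2 fold change of 3.78 ± 0.44 (SE) with an adjusted p of 0.0028. Both were several times higher in both cNK libraries, and both calls held without any 1 library. Granzyme B, Gzmb, had 2770.5 and 3655 CPM in cNK libraries and 822 and 1957 CPM in CD8 T cell libraries, with a log2 fold change of 1.21 ± 0.39 (SE) and an adjusted p of 0.234. The populations did not overlap in Gzmb, but the CD8 T cell libraries differed from each other by more than the cNK libraries did, and the gene was not called.

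Granzyme K, Gzmk, ran against Gzma and Prf1. It had 9.57 and 13.2 CPM in cNK libraries and 493 and 412 CPM in CD8 T cell libraries. Its log2 fold change was -5.31 ± 0.58 (SE) with an adjusted p of 0.00237, and the call held without any 1 library. Serpinb9b, an inhibitor of granule proteases, had 466 and 572 CPM in cNK libraries and 0 counts in both CD8 T cell libraries, at least 4659.8-fold higher with an adjusted p of 0.00315 that held without any 1 library. Its relatives Serpinb9 and Serpinb6b were also called higher, with log2 fold changes of 3.53 ± 0.35 and 3.15 ± 0.30 (SE). The death ligand Tnfsf10 (TRAIL) had 55.6 and 44.3 CPM in cNK libraries and 140.3 and 148 CPM in CD8 T cell libraries (log2 fold change -1.53 ± 0.28 (SE), adjusted p 0.0283). The call was lost without each of the 4 libraries (adjusted p 0.106 to 0.315). Nkg7, a granule membrane protein, was not called, with 3426 and 4712 CPM in cNK libraries, 2676 and 1598 CPM in CD8 T cell libraries and an adjusted p of 0.295.

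Transcription factors of NK cells and type 1 innate lymphocytes included 3 called higher and 2 called lower of 20 tested, with a median log2 fold change of 0.56. Irf8, which NK cells need in their response to virus, had 1148 and 1041 CPM in cNK libraries and 59.2 and 50.2 CPM in CD8 T cell libraries. The fitted log2 fold change was 4.32 ± 0.42 (SE) with an adjusted p of 0.00128, and the call held without any 1 library. Tbx21 (T-bet), a driver of the type 1 programme in both lineages, had 172 and 134 CPM in cNK libraries and 39.9 and 36.3 CPM in CD8 T cell libraries (log2 fold change 2.01 ± 0.37 (SE), adjusted p 0.0278). Id2, a factor that innate lymphocytes depend on, had 2039 and 2158 CPM in cNK libraries and 861 and 541 CPM in CD8 T cell libraries (log2 fold change 1.58 ± 0.29 (SE), adjusted p 0.0282). The populations did not overlap in these 3 genes, but the call of Tbx21 was lost without each of the 4 libraries (adjusted p 0.118 to 0.253) and that of Id2 held only without the first CD8 T cell library (adjusted p 0.043 to 0.261). Eomes, the related T-box factor of mature NK cells, had 146 and 188 CPM in cNK libraries and 69.3 and 35.6 CPM in CD8 T cell libraries, with an SE as large as its log2 fold change (1.67 ± 1.65) and an adjusted p of 0.831.

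The lower members of this list were Tox and Ikzf2. Tox, known for its part in chronically stimulated CD8 T cells as well as in NK cell development, had 160.3 and 178 CPM in cNK libraries and 689 and 604 CPM in CD8 T cell libraries, a log2 fold change of -1.93 ± 0.31 (SE) with an adjusted p of 0.0144. Ikzf2 (Helios) had 14 and 30.4 CPM in cNK libraries and 86.4 and 345 CPM in CD8 T cell libraries, a log2 fold change of -3.28 ± 0.66 (SE) with an adjusted p of 0.0408. The call of Tox was lost without each of the 4 libraries (adjusted p 0.0574 to 0.179) and that of Ikzf2 held only without the first CD8 T cell library (adjusted p 0.0107 to 0.338).

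Of 20 factors of naive and memory T cells, 2 were called lower in cNK cells and none higher, with a median log2 fold change of 0.96. Both cNK libraries lay above both CD8 T cell libraries in 13 of them and below in 3, beside 22.5% and 26.5% of all genes. Bcl11b, which sets T cell identity, had 2.26 and 4.8 CPM in cNK libraries and 105 and 102 CPM in CD8 T cell libraries. Its log2 fold change was -4.87 ± 0.50 (SE) with an adjusted p of 0.00152, and the call held without any 1 library. Id3 had 8.33 and 9.24 CPM in cNK libraries and 61.7 and 59.8 CPM in CD8 T cell libraries (log2 fold change -2.79 ± 0.56 (SE), adjusted p 0.0399). That call was lost without each of the 4 libraries (adjusted p 0.122 to 0.35). The factors that mark naive and memory T cells, Tcf7 and Lef1, were not called. Tcf7 had 103 and 116 CPM in cNK libraries and 143 and 149.5 CPM in CD8 T cell libraries, with an interval of -1.13 to 0.29 on the log2 scale. Lef1 had 97.2 and 81.3 CPM in cNK libraries and 38.4 and 86.6 CPM in CD8 T cell libraries, which overlapped, with an interval of -0.49 to 1.52. Gata3 and Foxp1 had intervals within 1 unit of 0, -0.54 to 0.63 and -0.46 to 0.82.

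Maturation markers of NK cells were higher in 4 of 17 tested genes and lower in 1, beside 0.701% and 1.04% of all genes. Itgam had 959 and 889 CPM in cNK libraries and 1.98 and 7.77 CPM in CD8 T cell libraries. The fitted log2 fold change was 7.57 ± 0.79 (SE) with an adjusted p of 0.00155, and the call held without any 1 library. Itga2 had 227 and 259 CPM in cNK libraries and 5.13 and 4.64 CPM in CD8 T cell libraries (log2 fold change 5.64, 95% interval 3.17 to 8.10, adjusted p 0.0348). Its call was lost without each of the 4 libraries (adjusted p 0.123 to 0.288). Cma1, a chymase gene that mast cells also express, had 393 and 514 CPM in cNK libraries and 1 count over the CD8 T cell libraries, a ratio of 12192 (95% counting interval 2188 to 481600.0), and its call was lost only without the second CD8 T cell library (adjusted p 0.0525). The mast cell genes Cpa3, Mcpt4 and Tpsb2 stood at 0 to 0.355 CPM in cNK libraries and at 0 to 0.400 CPM in CD8 T cell libraries. All 8 mast cell and basophil markers, with Cma1, summed to 491.5 and 628 CPM in cNK libraries and 51.5 and 87.9 CPM in CD8 T cell libraries. Of the 3 markers tested, both cNK libraries lay above both CD8 T cell libraries in 2, beside 22.5% of all genes tested. S1pr5 is the receptor by which NK cells leave tissue. It had 86.8 and 47.9 CPM in cNK libraries and 1.57 and 0 CPM in CD8 T cell libraries, without a call (adjusted p 0.117). DESeq2's Wald test and an edgeR fit of the 4 libraries alone did call it (adjusted p 4.5e-05 and 0.043). Lgals3 was lower, with 30.8 and 36.7 CPM in cNK libraries and 116 and 149 CPM in CD8 T cell libraries, a log2 fold change of -1.97 ± 0.31 (SE) that held only without the first CD8 T cell library (adjusted p 0.0311 to 0.162).

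Genes of tissue residency were lower in cNK cells in 8 of 16 tested members and higher in 1, beside 1.04% and 0.701% of all genes. Their median log2 fold change was -2.05. Cxcr6 had 12.4 and 26.8 CPM in cNK libraries and 2309 and 2433 CPM in CD8 T cell libraries, a log2 fold change of -6.92 ± 0.44 (SE) with an adjusted p of 0.000148. Itgae, the α chain of the integrin that binds E-cadherin, had 2.26 and 9.24 CPM in cNK libraries and 283 and 587 CPM in CD8 T cell libraries (log2 fold change -6.25 ± 0.76 (SE), adjusted p 0.00326). Itga1, the collagen-binding chain, had 3.89 and 7.82 CPM in cNK libraries and 92.9 and 81.4 CPM in CD8 T cell libraries (log2 fold change -3.90 ± 0.39 (SE), adjusted p 0.00141). All 3 were low in both cNK libraries and held without any 1 library, as did the calls of Cdh1, Cd101 and Inpp4b, with log2 fold changes of -5.42 ± 0.31, -5.05 ± 0.63 and -3.87 ± 0.42 (SE). Cdh1 is also a marker of epithelium, whose summed markers were higher in these CD8 T cell libraries; the part of these in its level was not tested. Qpct and Tnfsf10 were the other lower members, and the call of Qpct was lost only without the first cNK library (adjusted p 0.109). The higher member was Nr4a1, a gene switched on by receptor signals, with 803 and 925 CPM in cNK libraries and 251 and 302 CPM in CD8 T cell libraries (log2 fold change 1.64 ± 0.27 (SE), adjusted p 0.0178). The call was lost without each of the 4 libraries (adjusted p 0.0986 to 0.18).

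Of 16 tested genes of circulation and tissue exit, 14 were not called. Both cNK libraries lay above both CD8 T cell libraries in 11 of the 16 and below in 4, beside 22.5% and 26.5% of all genes tested. Gpr183, an oxysterol receptor that guides lymphocytes, had 18.9 and 22.3 CPM in cNK libraries and 121 and 122 CPM in CD8 T cell libraries (log2 fold change -2.56 ± 0.36 (SE), adjusted p 0.00633). That call was lost without either cNK library (adjusted p 0.124 and 0.072). Ccr7, which marks naive and central memory T cells, was low in both, with 13.5 and 12.1 CPM in cNK libraries, 28 and 40.1 CPM in CD8 T cell libraries and an adjusted p of 0.903. Il7r is the receptor for a survival signal of memory T cells. It had 19.8 and 27.5 CPM in cNK libraries and 188 and 153 CPM in CD8 T cell libraries, without a call (adjusted p 0.0611). DESeq2's Wald test and an edgeR fit of the 4 libraries alone did call it (adjusted p 6.9e-05 and 0.0111).

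Inhibitory receptors were lower in cNK cells in 5 of 17 tested members and higher in 1, beside 1.04% and 0.701% of all genes. Their median log2 fold change was -1.33. Pdcd1 (PD-1) had 1.09 and 0.977 CPM in cNK libraries and 777 and 609.9 CPM in CD8 T cell libraries, a log2 fold change of -9.38 ± 0.72 (SE) with an adjusted p of 0.000523. Lag3, which binds MHC class II molecules, had 3.81 and 6.22 CPM in cNK libraries and 134 and 64.2 CPM in CD8 T cell libraries (log2 fold change -4.30 ± 0.54 (SE), adjusted p 0.00383). Both were near absent from cNK libraries, and both calls held without any 1 library. Ctla4 had 1.79 and 1.33 CPM in cNK libraries and 60.7 and 49.7 CPM in CD8 T cell libraries (log2 fold change -5.13 ± 0.72 (SE), adjusted p 0.00676). Its call was lost without either cNK library (adjusted p 0.103 and 0.111). Havcr2 (TIM-3) was in the same range, with 1.09 and 6.31 CPM in cNK libraries and 69.5 and 60.5 CPM in CD8 T cell libraries, but was not called (adjusted p 0.359). Tigit, which both lineages express, had 142 and 169 CPM in cNK libraries and 321 and 212 CPM in CD8 T cell libraries without a call (adjusted p 0.35). Adora2a, the receptor for adenosine, was higher with 108 and 87.3 CPM in cNK libraries and 21.5 and 29 CPM in CD8 T cell libraries (log2 fold change 1.95 ± 0.37 (SE), adjusted p 0.03). The call was lost without each of the 4 libraries (adjusted p 0.168 to 0.35). Nt5e, the CD73 enzyme that makes adenosine, and Cd200r1 were the other lower members, with log2 fold changes of -2.95 ± 0.53 and -3.75 ± 0.52 (SE), and the call of Nt5e was lost without each of the 4 libraries (adjusted p 0.0577 to 0.247) and that of Cd200r1 without either cNK library (adjusted p 0.08 and 0.0714). Of 17 costimulatory genes, 2 were lower in cNK cells and none higher: Cd5, a pan-T receptor that dampens signals, and Tnfsf8, a ligand of the TNF family, both lost without each of the 4 libraries (adjusted p 0.108 to 0.349 and 0.0635 to 0.23).

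Cytokine receptors held 4 higher calls among 24 tested, beside 0.701% of all genes, and no lower call, although their median log2 fold change was -0.43. Il18rap, a chain of the receptor for interleukin 18, had 1164 and 1223 CPM in cNK libraries and 65.8 and 48.5 CPM in CD8 T cell libraries. The fitted log2 fold change was 4.38 ± 0.33 (SE) with an adjusted p of 0.000523, and the call held without any 1 library. Il12rb2, of the receptor for interleukin 12, had 673 and 568 CPM in cNK libraries and 51.3 and 93.1 CPM in CD8 T cell libraries (log2 fold change 3.10 ± 0.59 (SE), adjusted p 0.03). Il2rb, which receives interleukin 2 and interleukin 15, had 2634 and 3255 CPM in cNK libraries and 613 and 816 CPM in CD8 T cell libraries (log2 fold change 2.04 ± 0.33 (SE), adjusted p 0.0155). Both lay above the CD8 T cell libraries in both cNK libraries, but the call of Il12rb2 was lost without each of the 4 libraries (adjusted p 0.101 to 0.179) and that of Il2rb held only without the first cNK library (adjusted p 0.0457 to 0.118). The interferon γ receptor chain Ifngr1 was the other call, with a log2 fold change of 1.38 ± 0.27 (SE) lost without each of the 4 libraries (adjusted p 0.145 to 0.239). The shared chain Il2rg had an interval of -0.10 to 0.93, within 1 unit of 0.

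Among 17 secreted cytokines and chemokines, Ccl3 and Ccl4 were higher in cNK cells and Csf1 was lower. Ccl4 had 1560.4 and 1578 CPM in cNK libraries and 333 and 124 CPM in CD8 T cell libraries (log2 fold change 2.78 ± 0.47 (SE), adjusted p 0.0195), and Ccl3 had a log2 fold change of 2.74 ± 0.57 (SE). Both calls held only without the first CD8 T cell library, with an adjusted p of 0.0107 to 0.0789 for Ccl4 and 0.0357 to 0.262 for Ccl3 over the 4 repeats. Csf1, a growth factor of macrophages, had 1.63 and 1.87 CPM in cNK libraries and 29.3 and 58.4 CPM in CD8 T cell libraries (log2 fold change -4.64 ± 0.61 (SE), adjusted p 0.00474). That call was lost without either cNK library (adjusted p 0.0978 and 0.0738). Interferon γ, Ifng, had 261 and 263 CPM in cNK libraries and 122 and 122 CPM in CD8 T cell libraries, with a log2 interval of 0.31 to 1.89 and an adjusted p of 0.224. The populations did not overlap in Ifng, yet the gene was not called. An edgeR fit of the 4 libraries alone gave it an adjusted p of 0.0359, and DESeq2's Wald test gave 0.0838. Ccl5, a chemokine of both lineages, had 7375 and 10611 CPM in cNK libraries and 3766 and 1792 CPM in CD8 T cell libraries (adjusted p 0.213). Xcl1, which draws dendritic cells, had 245 and 263 CPM in cNK libraries and 93.6 and 97.6 CPM in CD8 T cell libraries (adjusted p 0.104). Both lay higher in both cNK libraries without a call. DESeq2's Wald test called Ccl5 and Xcl1 (adjusted p 0.0199 and 0.0045). The edgeR fit of the 4 libraries alone called Xcl1 (adjusted p 0.0216) and not Ccl5 (adjusted p 0.0678).

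The interferon response list held 7 lower calls in cNK cells and no higher call among 25 tested genes, with a median log2 fold change of -1.45 and both cNK libraries lower in 21 of them, beside 26.5% of all genes tested. Ifit3, an antiviral gene induced by type I interferon, had 15.7 and 22.9 CPM in cNK libraries and 253 and 283 CPM in CD8 T cell libraries, a log2 fold change of -3.79 ± 0.43 (SE) with an adjusted p of 0.00242. Ifit1 of the same family had 43.8 and 42.6 CPM in cNK libraries and 307 and 278 CPM in CD8 T cell libraries (log2 fold change -2.76 ± 0.31 (SE), adjusted p 0.00242). These 2 calls held without any 1 library, and the libraries of each population agreed closely. The calls of Rtp4, Gbp2, Oas1a, Igtp and Usp18, with log2 fold changes of -2.45 to -1.37, were each lost without at least 3 of the 4 libraries. Irf1 and Gbp3 had intervals within 1 unit of 0, -0.22 to 0.84 and -0.69 to 0.88.

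Proliferation, energy metabolism and early response genes showed few calls. None of 20 cell cycle genes was called by edgeR in either direction. An unadjusted edgeR p under 0.05 was found for 3, and DESeq2 called 2, beside 1913 and 998 of all 16828 genes tested. Of the 20, 18 had a negative log2 fold change, with a median of -0.92, and both cNK libraries lay below both CD8 T cell libraries in 13, beside 26.5% of all genes. The replication genes Pcna and Mcm2 had intervals of -0.81 to 0.60 and -0.88 to 0.90. Of 20 genes of glycolysis and hypoxia, the glucose transporter Slc2a3 and the phosphofructokinase Pfkp were higher in cNK cells, with log2 fold changes of 2.02 ± 0.37 and 1.28 ± 0.25 (SE), and both calls were lost without each of the 4 libraries (adjusted p 0.113 to 0.261 and 0.182 to 0.337). Of 21 immediate early genes, Nr4a1 was the call. The glycolytic enzymes Ldha, Pkm and Eno1 had intervals within 1 unit of 0, -0.54 to 0.53, -0.80 to 0.18 and -0.28 to 0.68. Among 20 genes of cytokine signalling, Cish, an inhibitor of interleukin 2 and interleukin 15 signals, was the call, with 66.6 and 54.1 CPM in cNK libraries and 293 and 309 CPM in CD8 T cell libraries. Its log2 fold change was -2.32 ± 0.30 (SE) with an adjusted p of 0.00452, lost only without the second cNK library (adjusted p 0.0683).

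**Figure D3:**
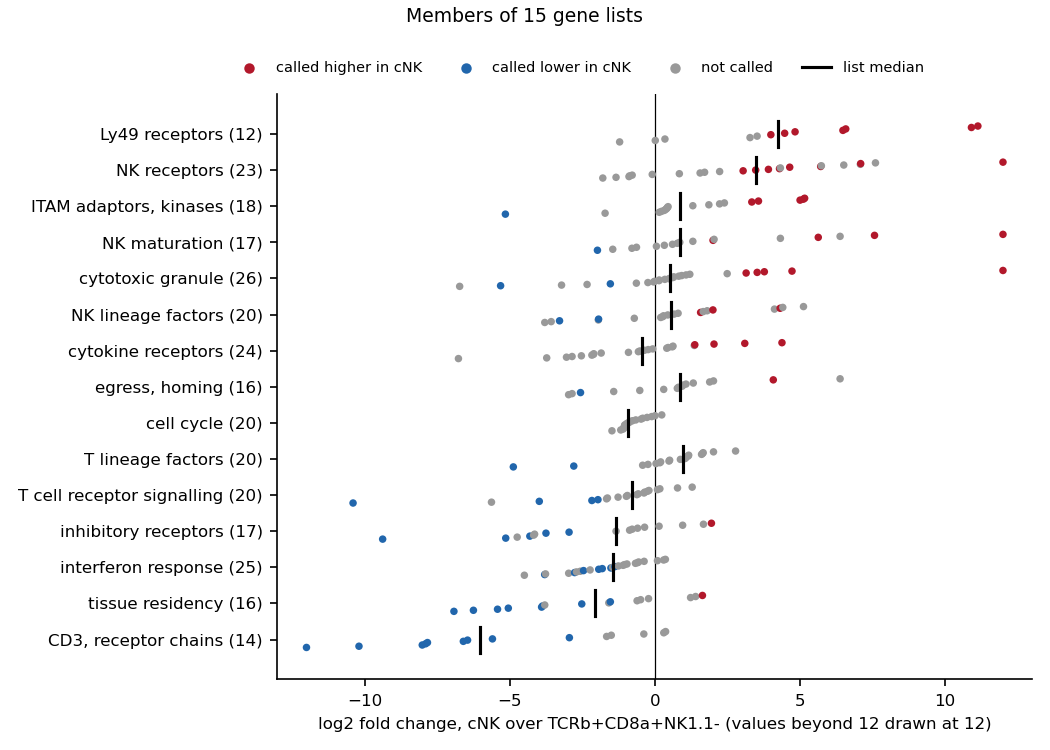
Fitted log2 fold changes of cNK cells over CD8 T cells for the tested members of 15 gene lists (number tested in brackets), 1 point per gene, red where called higher in cNK cells, blue where called lower and grey where not called, with the list median as a black bar and values beyond 12 drawn at 12. Ly49 and other NK receptors lie at the top with medians of 4.24 and 3.48, and CD3 and receptor chains at the bottom with a median of -6.02.

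Markers of other cells were tested as well. Of 17 epithelial markers tested, 4 were called lower in cNK cells, Krt19, Krt8, Epcam and Cdh1, and none higher, beside 1.04% of all genes called lower. All 17 had a negative log2 fold change, with a median of -4.75. Both cNK libraries lay below both CD8 T cell libraries in 14, beside 26.5% of all genes tested. Of the 17, 11 had an unadjusted edgeR p under 0.05 and DESeq2 called 9, beside 1913 and 998 of all 16828 genes tested. Krt19 had 13.3 and 2.84 CPM in cNK libraries and 256 and 514 CPM in CD8 T cell libraries (log2 fold change -5.57 ± 0.97 (SE), adjusted p 0.0212). Its call was lost without the second cNK library or the second CD8 T cell library (adjusted p 0.125 and 0.0771). The calls of Krt8 and Epcam, the keratin and adhesion molecule of luminal epithelium, were lost without each of the 4 libraries for Krt8 (adjusted p 0.0721 to 0.391) and without the first cNK or the second CD8 T cell library for Epcam (adjusted p 0.0916 and 0.101). Serpinb5, a protease inhibitor of epithelial cells, had 0 counts in both cNK libraries and 26.7 and 54 CPM in CD8 T cell libraries, at least 315-fold lower in cNK cells. Il33, an alarm cytokine of epithelial and stromal cells, had 0 counts in both cNK libraries and 74.7 and 52.1 CPM in CD8 T cell libraries, at least 517-fold lower in cNK cells. Both calls were lost without each of the 4 libraries (adjusted p 0.0745 to 0.209 and 0.0548 to 0.136). Krt19, Krt8, Serpinb5 and Il33 were among the 22 called genes that follow epithelial or myeloid markers, and Cdh1 was not. Without all genes that follow them, 154 of 15971 genes were called lower and 123 higher, and the part of epithelial RNA in the lower genes was not tested further. Ikzf4, listed among markers of regulatory T cells, had 3 counts over the cNK libraries and 58.4 and 34.7 CPM in CD8 T cell libraries, a ratio of 382 (95% counting interval 130.3 to 1853) that held without any 1 library. Foxp3, the factor that defines those cells, overlapped between the populations with 5.52 and 11.7 CPM in cNK libraries and 8.89 and 12.6 CPM in CD8 T cell libraries. Cd4 had 3.19 and 5.07 CPM in cNK libraries and 1.09 and 0 CPM in CD8 T cell libraries, and neither gene was called. The 8 markers summed to 27.5 and 54 CPM in cNK libraries and 125 and 148 CPM in CD8 T cell libraries. Itgax (CD11c), which NK cells share with dendritic cells, was the myeloid marker called, with 350.3 and 354 CPM in cNK libraries and 20.3 and 32.3 CPM in CD8 T cell libraries (log2 fold change 3.74 ± 0.42 (SE), adjusted p 0.00242). No B cell, stromal, erythroid or neutrophil marker was called by edgeR. In that order, 2 of 11, 5 of 10, 5 of 6 and 1 of 8 had an unadjusted edgeR p under 0.05. DESeq2 called 0, 3, 3 and 1 of these markers. Among all 16828 genes tested, the same counts were 1913 for edgeR and 998 for DESeq2. For the B cell gene Igkc, an immunoglobulin light chain, the cNK libraries held 1785 and 917 CPM and the CD8 T cell libraries 45 and 40.8 CPM (adjusted p 0.235). The part of B cell RNA in the genes called higher in cNK cells was not tested.

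The ILC1l cells, from tumours of the same mouse model, share NK receptors with cNK cells. Their values are set beside those of cNK cells for some of the genes above. T cell genes were present in the ILC1l libraries and differed between them. Cd3e had 88.4 and 477 CPM there and Cd8a had 52.9 and 256 CPM, and both were called lower in cNK cells. The part of T cell RNA in the ILC1l values below was not tested. The same fit called 171 genes (1.02%) between cNK and ILC1l cells, 69 higher (0.41%) and 102 lower (0.606%) in cNK cells. This comparison uses the same cNK libraries, so the values are set side by side. Ncr1 had 2735 and 2550.4 CPM in cNK libraries and 1780.3 and 1648 CPM in ILC1l libraries, a log2 fold change of 0.62 ± 0.96 (SE) that was not called. Tyrobp, with 1224 and 1720.4 CPM in ILC1l libraries, and Klrk1, with 980.4 and 908 CPM, were not called either (adjusted p 0.874 and 0.398). Prf1 had 2886 and 3713 CPM in cNK libraries and 591 and 518 CPM in ILC1l libraries (log2 fold change 2.57 ± 0.42 (SE), adjusted p 0.0191). Il18rap, Itgam and Irf8 were called higher against ILC1l cells too, with log2 fold changes of 3.52 ± 0.32, 3.88 ± 0.66 and 2.17 ± 0.38 (SE).

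The residency genes Cxcr6 and Itgae were lower in cNK cells than in ILC1l cells as well. Cxcr6 had 12.4 and 26.8 CPM in cNK libraries and 968 and 1405 CPM in ILC1l libraries, a log2 fold change of -5.92 ± 0.42 (SE) with an adjusted p of 0.000543. Itgae had 2.26 and 9.24 CPM in cNK libraries and 1318 and 1721 CPM in ILC1l libraries (log2 fold change -8.05 ± 0.82 (SE), adjusted p 0.00193). Pdcd1, at 13.9 and 55.4 CPM in ILC1l libraries, was lower in cNK cells by a log2 fold change of -5.05 ± 0.61 (SE). Gzmk and Bcl11b, both lower than in CD8 T cells, were not called against ILC1l cells, where they had 2.36 and 8.9 CPM and 5.75 and 5.32 CPM. Gzmb went the other way without a call, with 2770.5 and 3655 CPM in cNK libraries and 7665 and 11456 CPM in ILC1l libraries (log2 fold change -1.57 ± 0.40 (SE), adjusted p 0.131). The 17 epithelial markers other than Cdh1 summed to 83.2 and 128 CPM in cNK libraries and 58.4 and 33.6 CPM in ILC1l libraries. Without 1 of the libraries of this comparison, 34 to 79 genes were called: 34 without the first cNK library, 53 without the second, 79 without the first ILC1l library and 51 without the second.

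The first set of libraries offers a pair of related but not identical populations: TCR-NK1.1+ cells, which can hold both cNK and ILC1-like cells, and TCRb+CD8a+PD1-NK1.1- cells, from which PD-1 bearing cells were removed in the sort. The TCR-NK1.1+ libraries also held T cell RNA, with Cd3e at 208 and 418 CPM and Cd8a at 176 and 358 CPM. The part of this RNA in the values below was not tested. Of 15727 genes tested in the first set, 792 (5.04%) were called. Of these, 477 (3.03% of all genes tested) were higher in TCR-NK1.1+ cells and 315 (2.0%) lower. Of the 118 genes higher in cNK cells, 92 (78.0%) had a positive log2 fold change in the first set, where 52.8% of the 15194 genes tested in both did. In all, 49 of the 118 were called higher in TCR-NK1.1+ cells and 4 were called lower. Of the 175 genes lower in cNK cells, 100 (57.1%) had a negative log2 fold change in the first set, with 48 called lower and 27 called higher. The 175 include the 22 genes that follow epithelial or myeloid markers. These were chosen by correlation over libraries of both sets, so their direction in the first set was part of that choice and is no evidence, and no share without them is given.

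**Figure D4:**
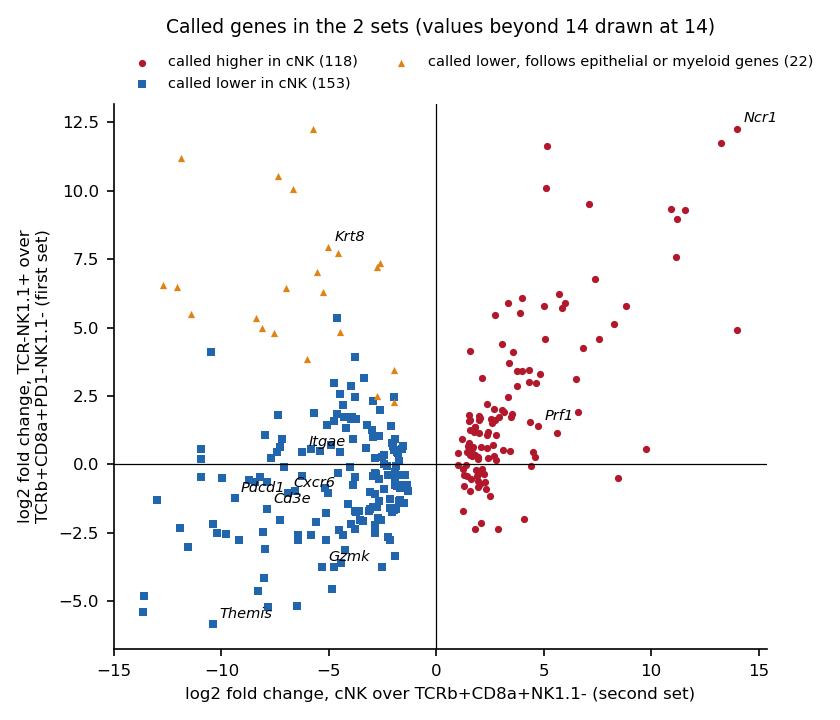
Called genes of the second set, placed by their log2 fold change of cNK over CD8 T cells (horizontal) and of TCR-NK1.1+ over TCRb+CD8a+PD1-NK1.1- cells in the first set (vertical). Red circles are the 118 genes higher in cNK cells, blue squares 153 lower genes and orange triangles the 22 lower genes that follow epithelial or myeloid markers, which the choice over both sets places above 0 on the vertical axis.

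Among lineage and killing genes, those named next had the same direction in both sets. Ncr1 had 1682 and 1055 CPM in TCR-NK1.1+ libraries and 0.548 and 0 CPM in TCRb+CD8a+PD1-NK1.1- libraries, and Tyrobp had 1878 and 896 CPM in TCR-NK1.1+ libraries and 22.8 and 27 CPM in TCRb+CD8a+PD1-NK1.1- libraries. Prf1 was called higher there with a log2 fold change of 1.40 ± 0.34 (SE), Gzma with 2.85 ± 0.45 (SE), Irf8 with 2.99 ± 0.51 (SE) and Gzmb, not called in the second set, with 1.95 ± 0.40 (SE). Themis, Bcl11b and Gzmk were called lower with log2 fold changes of -5.84 ± 1.41, -4.56 ± 0.47 and -3.77 ± 0.48 (SE).

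For memory, homing and residency genes the values of the sets stood apart. Tcf7 had 71.7 and 52.4 CPM in TCR-NK1.1+ libraries and 726 and 461 CPM in TCRb+CD8a+PD1-NK1.1- libraries, a log2 fold change of -3.26 ± 0.35 (SE) with an adjusted p of 0.00167, against -0.42 without a call in the second set. Lef1 and Ccr7 were also called lower in TCR-NK1.1+ cells, with log2 fold changes of -4.24 ± 0.52 and -6.11 ± 0.66 (SE), and the genes of circulation and exit had 8 lower calls of 16 there. Itgae had 498 and 724 CPM in TCR-NK1.1+ libraries and 389 and 508 CPM in TCRb+CD8a+PD1-NK1.1- libraries, with a log2 fold change of 0.45 ± 0.33 (SE) and no call. Il18rap had 44.7 and 124 CPM in TCR-NK1.1+ libraries and 86.7 and 90.9 CPM in TCRb+CD8a+PD1-NK1.1- libraries, which overlapped, with a log2 fold change of -0.07 ± 0.43 (SE). Tcrg-C4 and Lgals3, called lower in cNK cells, were called higher in TCR-NK1.1+ cells, with log2 fold changes of 1.73 ± 0.28 and 2.45 ± 0.40 (SE). Tcrg-C1 and Tcrg-C2 were not called there, with log2 fold changes of 1.45 ± 0.40 and -0.45 ± 0.29 (SE). The difference of these effects between the sets was not tested, since neither population is the same in both. The 17 epithelial markers other than Cdh1 summed to 6179 and 3457 CPM in TCR-NK1.1+ libraries and 26.7 and 39.3 CPM in TCRb+CD8a+PD1-NK1.1- libraries, the reverse of the order in the second set. Without 1 library of this pair, 134 genes were called without the first TCRb+CD8a+PD1-NK1.1- library, 311 without the second, 226 without the first TCR-NK1.1+ library and 884 without the second.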

How the data were processed

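Per the labels' protocols, lymphocytes of pooled PyMT mammary tumours went through Percoll and a flow sorter, and SMARTer chemistry amplified the cDNA. The authors deposited whole counts per gene for 22 libraries, made with BWA 0.7.5a, Picard and HTSeq per the submitters' processing notes. The builds named there are mm9 and NCBIM37. The sources used here do not say which build served what, whether strand was used or how counting was set. The libraries carry no molecular identifiers that the sources name, so bounds and counting intervals cover counting error only. The 4 libraries of this comparison held 11540356 to 13552658 counts.

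R 4.3.3 and edgeR 4.0.16 were used. Low counts were removed by filterByExpr, libraries were scaled by TMM, and genes were called by the quasi-likelihood test at a Benjamini-Hochberg adjusted p under 0.05. The fit held the 12 libraries of the second set with 1 mean per population, since 2 libraries per population give little information on spread. The first set (10 libraries) was fitted apart. CPM are scaled by TMM factors. DESeq2 1.42.0 served an alternative test, and Python 3.11.15, pandas 2.3.3 and matplotlib 3.10.9 tables and figures. Of 37620 entries, 32897 (99.0% of counts) were matched to symbols. Against a population with 0 counts, the fold is a lower bound from 3 counts over its libraries. With 1 to 3 counts there, the ratio is given with its 95% counting interval. On simulated data drawn from these libraries (15957 genes), the test of cNK against CD8 T cells recovered 0, 22, 70 and 78% of the 50 genes set at log2 changes of 1, 2, 4 and 6, and made 2 false calls.

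The populations, the 32 gene lists and the alternatives were chosen with earlier results of these data known. Named genes are 26 key genes, the 10 highest and the 10 lowest called fold changes (no overlap, 20 CPM or more on the high side), and up to 3 called members each way and 3 members within 1 log2 unit of each list. The rule leaves out predicted genes, olfactory receptors and receptor segments, and some genes it picks are not printed. Other list members, Cd4, Foxp3, Igkc, Cpa3, Mcpt4, Tpsb2, Trbc1, Trbc2, Trdv4 and all genes of the closing section were named after their values were seen. Genes that follow other cell types had a correlation over 0.8 of log2 CPM with the mean of the epithelial or myeloid markers. All 22 libraries entered for epithelial markers and 20 for myeloid markers, where those of TCRgd+NK1.1- cells were left out. The CPM of this step were scaled by library totals and not by TMM. Some listed genes, such as Trdc and Klra18, are not analysed here, and 1 called gene of the circulation list is not reported here. Motif shares of called genes were not compared, since under 80% of them had a RefSeq promoter.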

Additional observations from a re-analysis of the deposited data

How the results depend on the processing

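Each population has 2 libraries, and the number of called genes moved with the filter, the test and the libraries that entered the fit. For cNK against CD8 T cells the count of 293 became 1094 without a filter on low counts, 998 with DESeq2's Wald test, 733 in a fit of the 4 libraries alone, 450 in a fit of all 22 libraries and 132 in a test against a fold of 2. Leaving out 1 library gave 93 to 158. It was 288 with DESeq2's size factors, 423 without the TCRgd+NK1.1- libraries, 335 without the TCRab+ILTC1 libraries and 277 without the genes that follow epithelial or myeloid markers; the last 3 alternatives were chosen after seeing the data. The share of calls that were higher in cNK cells was 40.3% and ran from 29.4% without a filter to 49.0% without the first cNK library. Genes within 1 log2 unit, 1297, became 2255 in the fit of 4 libraries, 1958 without the TCRgd+NK1.1- libraries and 312 to 428 without 1 library. For TCR-NK1.1+ against TCRb+CD8a+PD1-NK1.1- cells the count of 792 became 2225 without a filter, 1590 with DESeq2 and 1886 with the 4 libraries alone, and 134 to 884 without 1 library. For cNK against ILC1l cells the count of 171 became 787 without a filter, 829 with DESeq2, 1519 with the 4 libraries alone and 327 with all 22, and 34 to 79 without 1 library. The cause of these shifts was not tested, except that fewer libraries or genes enter some of the fits.

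In the second set, same-numbered libraries hardly deviated together: the correlation of deviations from the population mean was -0.02 to 0.13 over 15 pairs of populations, 2 of them over 0.1, and 0.07 for cNK and CD8 T cells. In the first set it was 0.1 to 0.34 over 10 pairs, 9 of them over 0.1, and 0.1 for TCR-NK1.1+ and TCRb+CD8a+PD1-NK1.1- cells. The labels do not say what the numbers mark, and the cause of these values was not tested. With 2 numbers per set the libraries were not treated as paired. With the replicate number as a block, 278 genes were called for cNK against CD8 T cells and 184 against ILC1l cells, against 293 and 171 without it. For TCR-NK1.1+ against TCRb+CD8a+PD1-NK1.1- cells the block gave 1409 called genes, against 792.

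Of the 49 named genes and list members called higher in cNK cells, DESeq2 and the fits without a filter or with all 22 libraries called all 49, the 4 libraries alone 48, DESeq2's size factors and the block 46 each, the test against a fold of 2 called 29, and the fits without 1 library 23 to 26. Of the 54 called lower, the same alternatives called 54, 51, 54 and 49, 36, and 27 to 39. None of these genes, nor of the 11 other named genes without a call, changed direction under the alternatives run. Of those 11, DESeq2 called 4, the 4 libraries alone 4 and the fit without a filter 7. Of the 21 named genes with an interval within 1 log2 unit, 10 had the other sign under at least 1 alternative. Depth limits genes near 3 counts per library, 0.221 to 0.260 CPM.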

Other observations

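Some called genes outside the lists stood far apart between the populations, and all genes of this part were chosen after their values were seen. Adgrg1 (GPR56), an adhesion receptor of cytotoxic lymphocytes, had 1.32 and 1.16 CPM in cNK libraries and 322 and 308 CPM in CD8 T cell libraries, a log2 fold change of -7.98 ± 0.49 (SE) with an adjusted p of 0.000148. Adam19, a membrane protease, had 2.65 and 2.67 CPM in cNK libraries and 402 and 415 CPM in CD8 T cell libraries (log2 fold change -7.26 ± 0.57 (SE), adjusted p 0.000611). Ms4a6b, a membrane protein of T cells, had 215 and 276 CPM in cNK libraries and 1213 and 1114 CPM in CD8 T cell libraries (log2 fold change -2.24 ± 0.21 (SE), adjusted p 0.00128). In each of the 3 the libraries of a population lay close together, and the calls held without any 1 library. Hsd11b1, the enzyme that makes active glucocorticoid inside cells, was higher in cNK cells, with 590.3 and 776 CPM against 151 and 159 CPM in CD8 T cells (log2 fold change 2.14 ± 0.24 (SE), adjusted p 0.00242), and held as well. Ifit1bl1 and Tgtp2, named for their families of interferon-induced genes, were lower in cNK cells with log2 fold changes of -4.77 ± 0.44 and -2.15 ± 0.24 (SE) and held without any 1 library.

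Actb, the gene of β-actin and often taken as a constant standard, was called higher in cNK cells, with 31990.0 and 38019 CPM against 16979.9 and 17985 CPM in CD8 T cells (log2 fold change 1.00 ± 0.18 (SE), adjusted p 0.0268). Its call was lost without each of the 4 libraries (adjusted p 0.0738 to 0.288). Flna, an actin crosslinker, had 1093 and 2218 CPM in cNK libraries and 296 and 371 CPM in CD8 T cell libraries (log2 fold change 2.31 ± 0.42 (SE), adjusted p 0.0259), and its call held only without the first cNK library (adjusted p 0.0252 to 0.223 over the 4 repeats). Dstn, an actin-severing protein, ran the other way with 35 and 48.4 CPM in cNK libraries and 189 and 375 CPM in CD8 T cell libraries (log2 fold change -2.76 ± 0.47 (SE), adjusted p 0.0201), and its call held only without the first CD8 T cell library (adjusted p 0.0199 to 0.209 over the 4 repeats).

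Bpifa2, a secreted protein of salivary glands, had 0 counts in both cNK libraries and 1031 and 2922 CPM in CD8 T cell libraries without a call (adjusted p 0.223). Amy1, salivary amylase, was at 0 in both cNK libraries and at 187 and 494 CPM in CD8 T cell libraries (adjusted p 0.15). The epithelial markers that summed higher in the same CD8 T cell libraries are given above, and their part in these genes was not tested.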
